A study of Mus musculus with 12 samples.

Results

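Nitric oxide and cyclic GMP signalling was followed through 10 genes in the hearts of mice bred to lack 2 steroid hormone receptors in cardiomyocytes. The genes are the nitric oxide synthases Nos1, Nos2 and Nos3, the synthase adaptor Nos1ap, the enzyme Ddah1, the soluble guanylyl cyclase subunits Gucy1a3 and Gucy1b3, the phosphodiesterase Pde5a, the kinase Prkg1 and the channel subunit Cngb3. The list was drawn up with earlier results of these data known. Its probes were chosen by name: every probe that carried one of these names, or an older synonym of one, was taken. All 10 genes had a probe on the array, 21 probes in all, and 17 of these passed the filter on dim signals. That left 9 of the 10 genes among the 18259 genes tested, and Nos2 was the one left out. Nos1 counts as tested only through a probe named by a synonym, since the probe of its own name did not pass.

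RNA came from whole hearts of 12 male C57BL/6 mice. All 12 carried floxed alleles of Nr3c1, the gene of the glucocorticoid receptor, and of Nr3c2, that of the mineralocorticoid receptor. The cardioGRMRdKO mice, called knockout here, also carried Cre driven in cardiomyocytes by the αMHC promoter, so other cells of these hearts keep both receptors. The controls, called dflox, were littermates without Cre. The 4 groups, dflox and knockout mice aged 1 month and dflox and knockout mice aged 2 months, held 3 hearts apiece. No group carried Cre with unfloxed receptor genes, so effects of Cre and of receptor loss cannot be told apart.

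Nitric oxide synthases make nitric oxide from arginine, and the gas binds soluble guanylyl cyclase, which then makes cyclic GMP. Cyclic GMP activates protein kinase G and cyclic nucleotide-gated channels, and phosphodiesterases break it down. In the heart the endothelial synthase acts mainly in vessels and at the cardiomyocyte surface, and the neuronal synthase is known near the calcium stores of cardiomyocytes and in cardiac nerves.

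The results turn on a few 60-base probes, shown here 5′ to 3′ so that it is clear what was measured. The 3 probes that carry a synthase's own name come first, and capitals mark the bases that the Nos2 and Nos3 probes share when aligned without gaps (27 of 56 aligned bases).
Nos1: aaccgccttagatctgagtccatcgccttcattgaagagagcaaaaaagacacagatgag
Nos2: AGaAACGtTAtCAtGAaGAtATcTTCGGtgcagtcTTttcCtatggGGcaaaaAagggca
Nos3: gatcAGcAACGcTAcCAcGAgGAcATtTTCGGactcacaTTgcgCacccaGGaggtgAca
The longest stretch shared by any 2 probes of different genes in the set was 12 bases.

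A second probe was taken for Nos1 because its name in the files, 2310005C01Rik, is listed by RefSeq as a synonym of Nos1. That name was given to a mouse cDNA clone. For this probe, and for both Cngb3 probes, the first 30 of the 60 bases are shown, because these are the probes behind the differences that follow.
2310005C01Rik: tataaccctcatcttctcattttatgggat
Cngb3, probe 1: ctctgattttcactcgaagtcaatgtcagt
Cngb3, probe 2: ctgatagagttgtcctttaagtttttacaa

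On mouse build mm7, the probe named Nos1 lies at chr5:117181816-117181875 and the 2310005C01Rik probe at chr5:117187735-117187794, both on the plus strand. The second probe starts 5919 bases downstream of the first. Exon and UTR annotation of that build was not used here, so whether the 2310005C01Rik probe reads the Nos1 transcript or another RNA from the same strand is not known from these data. Cngb3 probe 1 lies at chr4:19436051-19436110 and probe 2 at chr4:19437203-19437262, both on the plus strand.

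Levels below are log2 intensities relative to the 75th percentile of the same array, so 0 is that percentile. A difference is knockout minus dflox unless said otherwise. A gene was called when the Benjamini-Hochberg adjusted p from limma, over all genes tested, was under 0.05. Per array, the scanner software scored 63.6% to 71.6% of transcript spots as well above background. The targeted gene Nr3c1 differed by -1.1 at 2 months (limma, adjusted p = 0.00565) and by -0.73 at 1 month (limma, adjusted p = 0.119, from 2 hearts a group, since 1 spot in each group was an outlier and dropped). The 2-month call was lost with the mean of its passing probes (-0.74, limma adjusted p = 0.255), without slide 3 (-1.2, 0.0915) and with the 2 groups fitted alone (-1.1, 0.054). Nr3c2 was not called at either age, with differences of 0.06 at 1 month and -0.46 at 2 months. In the labelled tissue, all 8 endothelial cell markers were well above background in all 12 hearts.

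The arrays lay on 3 slides with 4 places each. The dflox arrays of the 1-month age all had outer places and the knockout arrays inner ones, and there genotype and place cannot be told apart. At 2 months both genotypes had arrays in both places. A place term in a fit was therefore set by the 2-month arrays alone and carried over to 1 month. Summed markers of airway epithelium also moved with genotype at 1 month: the mean level of 8 such markers ran from 0.99 to 2.23 in the dflox hearts and from -3.86 to -2.12 in the knockout hearts. By 2 months it ran from -3.71 to 2.49 in dflox and from -3.88 to 2.1 in knockout hearts. Its part in the results was not tested beyond the covariate fits given below. RNA was measured in bulk, so fewer cells of a type and less RNA per cell cannot be told apart for any gene below.

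In the knockout hearts, 1 probe of the set was several-fold higher and 1 gene was several-fold lower, at both ages. The 2310005C01Rik probe, which stands for Nos1 by synonym, rose, and Cngb3, a subunit of the cone cyclic nucleotide-gated channel, fell. Both Cngb3 probes were lower, but probe 2 passed the filter through dflox hearts and was not well above background in most knockout hearts. Thus 2 of 9 tested genes were called at 1 month, beside 0.98% of all 18259 genes tested, and 2 of 9 at 2 months, beside 2.31% of all genes. The same pair was called with both ages averaged, beside 4.5% of all genes. The set was chosen with earlier results of these data known, so these shares do not test it against the array. The median difference over the 9 genes was -0.15 at 1 month and -0.27 at 2 months, beside 0 and -0.1 over all genes tested. The remaining 7 genes, among them the endothelial synthase, both cyclase subunits and protein kinase G, were not called in any comparison.

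**Figure D1:**
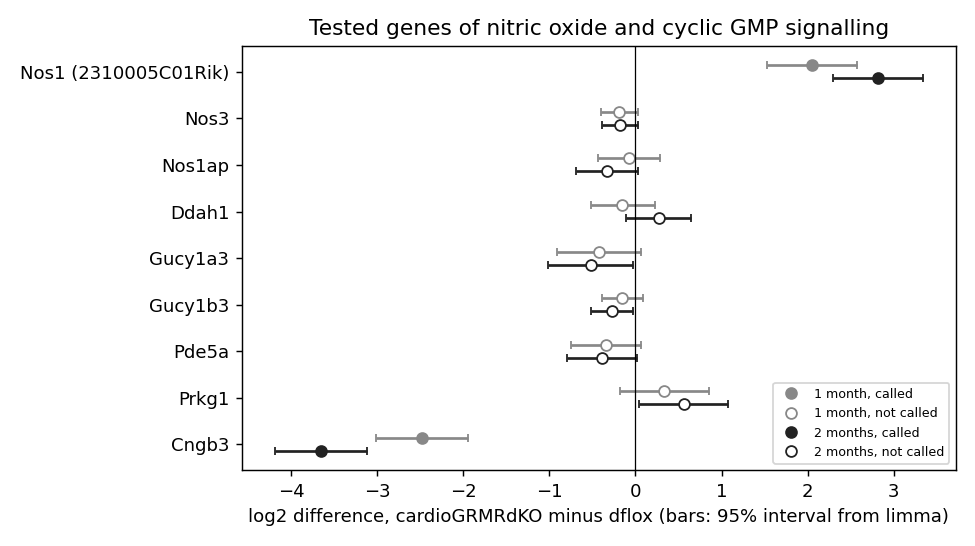
Log2 difference of knockout (cardioGRMRdKO) minus dflox hearts for the 9 tested genes at 1 month (grey) and 2 months (black). Points are estimates from 3 hearts a group, bars are 95% intervals from limma, and filled points were called. The 2310005C01Rik probe stands at 2.05 and 2.82, Cngb3 at -2.48 and -3.65, and the other 7 genes lie between -0.52 and 0.56.

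Nos1 encodes the neuronal nitric oxide synthase. The probe named Nos1, spotted 10 times on each array, was not well above background in any of the 12 hearts. Its levels were -7.35, -7.16 and -7.82 in dflox and -6.85, -7.33 and -7.08 in knockout hearts at 1 month. At 2 months they were -7.71, -7.11 and -7.23 in dflox and -7.29, -6.57 and -7.44 in knockout hearts. All these values lie in the background range, the genotypes overlap at both ages, and no fold is given. A difference in the part of the transcript that this probe reads was not detectable here.

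The 2310005C01Rik probe, spotted once per array, was well above background in all 12 hearts. At 1 month its level was -3.57, -4.02 and -3.68 in dflox and -2.08, -1.47 and -1.58 in knockout hearts. In the 2-month hearts it was -3.94, -3.86 and -3.11 in dflox and -0.76, -0.9 and -0.8 in knockout hearts. Every knockout heart was higher than every dflox heart of either age, and the 3 knockout hearts at 2 months were the highest of all. The difference was 2.05 (SE 0.234, 4.14-fold higher, limma adjusted p = 0.00268) at 1 month and 2.82 (SE 0.234, 7.05-fold higher, limma adjusted p = 0.000363) at 2 months.

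Ordered by size among called rises over the whole array, the probe stood at place 7 at 1 month and place 10 at 2 months. From 1 to 2 months it differed by 0.89 in knockout hearts (SE 0.234, limma adjusted p = 0.14) and by 0.12 in dflox hearts (SE 0.234, limma adjusted p = 0.83), and neither was called. The genotype effect was 0.77 larger at 2 months than at 1 month (SE 0.331, limma unadjusted p = 0.0422, adjusted p = 0.934).

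**Figure D2:**
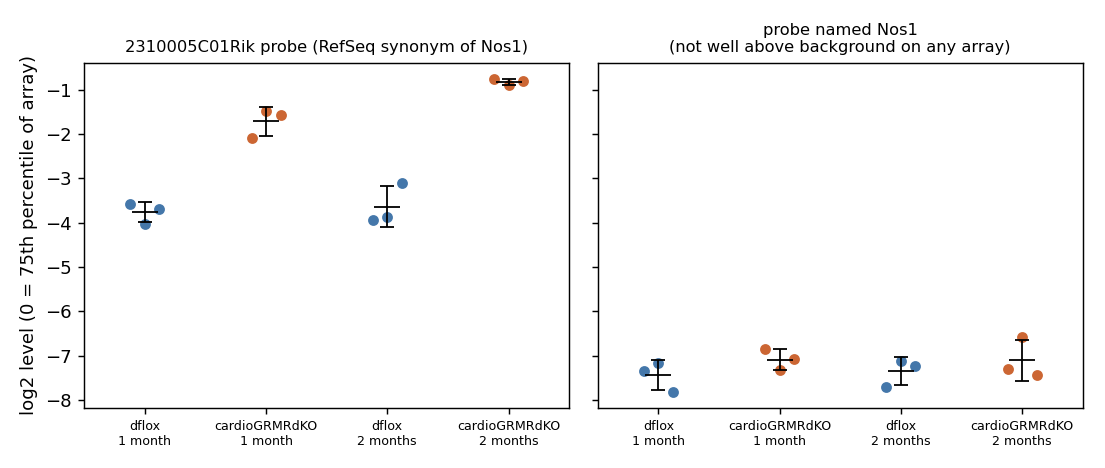
Log2 level of the 2310005C01Rik probe (left) and of the probe named Nos1 (right) in each heart of the 4 groups, with the mean and SD of 3 hearts. On the left, the knockout hearts lie between -2.08 and -0.76 and the dflox hearts between -4.02 and -3.11. On the right, no value is well above background.

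Within slides, the 2310005C01Rik probe was higher in knockout hearts by 2.11 on slide 1 and 2.28 on slide 2 at 1 month, and by 3.14 on slide 1 and 2.59 on slide 3 at 2 months, from 1 knockout and 1 or 2 dflox hearts each. At 2 months, where places were mixed, it was higher by 2.68 in the outer and by 3.11 in the inner places. Outer places held 1 knockout and 2 dflox hearts of that age, and inner places 2 knockout and 1 dflox. With place as a term in the fit, the 1-month difference was 2.29 and no longer called (limma adjusted p = 0.0606). That term rests on the 2-month arrays alone, so it does not separate place from genotype at 1 month. With the airway marker level as a covariate it was 2.31 (limma adjusted p = 0.0255).

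The neuronal synthase is also found in skeletal muscle and in nerves, so marker levels of those cells stand beside the rise of the 2310005C01Rik probe. Whether that probe reads the Nos1 transcript is not known, as said above. Of 8 skeletal muscle markers, 1 was above 0 in the genotype difference at each age, with a median of -0.25 at 1 month and -0.36 at 2 months, and none was called in either direction. Their mean level ran from -1.76 to -1.35 in dflox and -2.05 to -1.91 in knockout hearts at 1 month, and from -1.72 to -1.15 and -1.96 to -1.71 at 2 months. That mean joins unlike genes: Ckm and Myh4 lay between 5.64 and 7.66 in all 12 hearts and the others at -2.3 or lower. How far it reads skeletal muscle cells was not tested. Of 7 tested markers of neurons and Schwann cells, 0 were above 0 at 1 month and 2 at 2 months, with medians of -0.35 and -0.13 and none called. The part of these cells in the rise was not tested.

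The genes whose levels were most like the 2310005C01Rik probe over the 12 hearts, by Pearson r among 14657 named genes, were Ephx4 (r = 0.979), Prss55 (0.975), P4htm (0.968), Cck (0.967) and Megf9 (0.965). These hearts share their group means, which sets most of such an r. After group means were removed, r was 0.86 for Ephx4, 0.8 for Cck, 0.6 for P4htm, 0.42 for Prss55 and 0.39 for Megf9. Ephx4, an epoxide hydrolase family member, was higher in knockout hearts by 2.26 at 1 month and 3.3 at 2 months.

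Nos2 encodes the inducible synthase, which macrophages make when activated. Its probe (chr11:79041233-79041292, plus strand, mm7), spotted 10 times, was well above background in 2 of 12 hearts, 1 dflox heart at 1 month and 1 knockout heart at 2 months, so it was not tested. Its levels ran from -6.72 to -5.7 in dflox and -6.93 to -5.96 in knockout hearts at 1 month, and from -6.15 to -5.73 and -6.48 to -5.71 at 2 months. The genotypes overlapped at both ages.

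Nos3 encodes the endothelial synthase, the member of the family that makes nitric oxide in vessel walls. Its probe (chr5:23424311-23424370, plus strand, mm7), spotted 10 times, was well above background in all hearts. At 1 month its level was 1.44, 1.49 and 1.51 in dflox and 1.37, 1.28 and 1.24 in knockout hearts. The level at 2 months was 1.28, 1.3 and 1.22 in dflox and 1.06, 0.96 and 1.23 in knockout hearts. The knockout hearts lay below the dflox hearts without overlap at 1 month, and 1 knockout heart overlapped them at 2 months.

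The differences in Nos3 were small: -0.19 (SE 0.0953, 95% interval -0.4 to 0.03, limma adjusted p = 0.648) at 1 month and -0.18 (SE 0.0953, 95% interval -0.39 to 0.03, limma adjusted p = 0.383) at 2 months. They were not called, and the intervals leave room for a fall of up to 0.4 log2 units. Of 8 endothelial markers, 1 was above 0 at 1 month and 2 at 2 months, with medians of -0.08 and -0.12. None of the 8 was called.

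Nos1ap, an adaptor protein that binds the neuronal synthase, was measured by 1 probe. Its level ran from -4.38 to -4.14 in dflox and -4.54 to -4.25 in knockout hearts at 1 month. At 2 months it ran from -4.38 to -3.9 and from -4.74 to -4.29. The genotypes overlapped at both ages. The difference was -0.07 (SE 0.161, limma adjusted p = 1) at 1 month and -0.33 (SE 0.161, limma adjusted p = 0.353) at 2 months.

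Ddah1 breaks down methylarginines, which inhibit nitric oxide synthases. On the probe that represented it, the level was -1.63, -1.26 and -1.4 in dflox and -1.48, -1.46 and -1.8 in knockout hearts at 1 month. By 2 months it was -1.77, -2.13 and -1.84 in dflox and -1.4, -1.93 and -1.6 in knockout hearts. The groups overlapped at both ages. The difference was -0.15 at 1 month and 0.27 at 2 months (SE 0.17 for both, limma adjusted p = 0.983 and 0.449), and the second Ddah1 probe stood at -0.18 and 0.14. Both probes thus had a different sign at the 2 ages, and the difference between the ages was 0.42 (SE 0.24, limma adjusted p = 0.934).

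Gucy1a3 and Gucy1b3 encode the alpha and beta subunits of soluble guanylyl cyclase, the receptor for nitric oxide. Their current symbols are Gucy1a1 and Gucy1b1. On its representing probe, Gucy1a3 was at 0.64, 1 and 0.46 in dflox and 0.65, 0.21 and -0.01 in knockout hearts at 1 month. In the 2-month hearts it was at 0.75, 0.45 and 1.16 in dflox and 0.35, 0.29 and 0.14 in knockout hearts. The genotypes overlapped at 1 month and did not at 2 months.

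Gucy1a3 differed by -0.42 (SE 0.22, limma adjusted p = 0.662) at 1 month and -0.52 (SE 0.22, limma adjusted p = 0.287) at 2 months. All 4 of its probes were below 0 at both ages, from -0.43 to -0.11 at 1 month and from -0.52 to -0.17 at 2 months. Averaged over ages the representing probe gave -0.47 (SE 0.155, limma adjusted p = 0.139) and was not called. When the mean of the 4 probes stood for the gene, the averaged difference was -0.34 and was called (limma adjusted p = 0.0292). In the other 21 of 22 alternative settings it was not called, and over all 22 the difference ran from -0.56 to -0.34.

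For the beta subunit, the level of Gucy1b3 on its representing probe was 1.13, 1.21 and 1.11 in dflox and 1.05, 0.99 and 0.97 in knockout hearts at 1 month. The level at 2 months was 1.09, 1 and 1.05 in dflox and 0.77, 0.98 and 0.58 in knockout hearts. The genotypes did not overlap at either age. The differences of -0.15 (SE 0.109, limma adjusted p = 0.865) and -0.27 (SE 0.109, limma adjusted p = 0.272) were not called. At 1 month the other 2 probes stood at -0.17 and -0.09, and at 2 months at 0.06 and 0, so the 3 probes did not share a sign at 2 months.

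Pde5a, the phosphodiesterase that sildenafil inhibits, breaks down cyclic GMP and was measured by 1 probe. Its level was -4.58, -4.23 and -3.98 in dflox and -4.36, -4.78 and -4.68 in knockout hearts at 1 month. At 2 months it was -4.6, -4.63 and -4.37 in dflox and -4.73, -5.18 and -4.84 in knockout hearts. The genotypes overlapped at 1 month and did not at 2 months. The difference was -0.34 (SE 0.184, limma adjusted p = 0.674) at 1 month and -0.39 (SE 0.184, limma adjusted p = 0.344) at 2 months.

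Prkg1 encodes protein kinase G type I, the main cyclic GMP effector in smooth muscle. Of its 4 probes, 2 were not well above background in any heart and 2 passed. On the representing probe the level was -1.77, -1.8 and -0.98 in dflox and -1.13, -1.15 and -1.28 in knockout hearts at 1 month. By 2 months it was -1.46, -2.11 and -2.08 in dflox and -1.44, -1.35 and -1.21 in knockout hearts. The genotypes overlapped at 1 month, where 1 dflox heart was the highest of all, and did not at 2 months. Of 8 smooth muscle and pericyte markers, 3 were above 0 at 1 month and 4 at 2 months, with medians of -0.12 and 0.04. Only Acta2 was called, higher at 2 months (0.91, limma adjusted p = 0.0225). The part of these cells in the Prkg1 levels was not tested.

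Prkg1 differed by 0.33 (SE 0.233, limma adjusted p = 0.838) at 1 month and 0.56 (SE 0.233, limma adjusted p = 0.285) at 2 months, and on its second passing probe the values were 0.26 and 0.31. Apart from the 2310005C01Rik probe, Prkg1 was the one tested gene of the set with a positive difference at both ages. Averaged over ages it gave 0.45 (SE 0.165, limma adjusted p = 0.185). Without the highest dflox heart at 1 month, dflox replicate 3, the averaged difference was 0.58 and was called (limma adjusted p = 0.0394). In the other 21 of 22 alternative settings it was not called, and over all 22 the difference ran from 0.22 to 0.58.

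**Figure D3:**
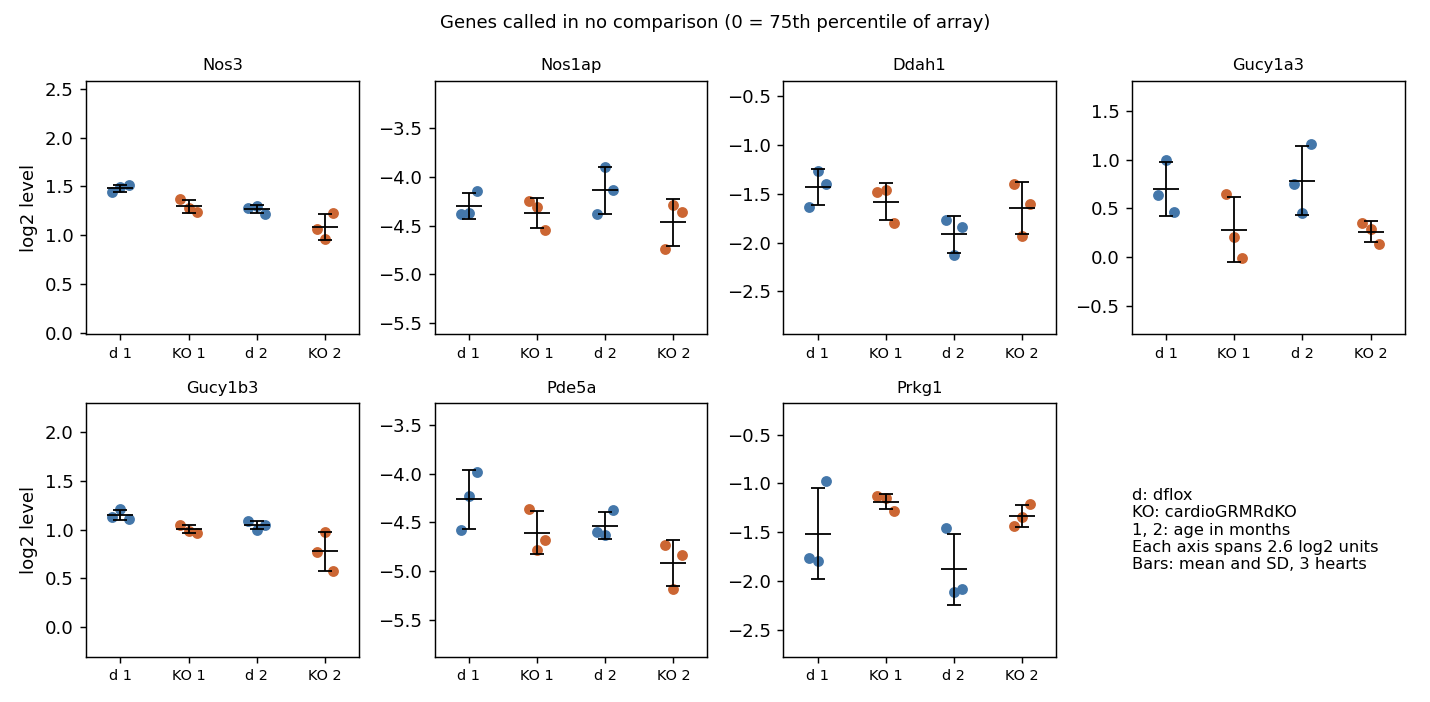
Log2 level of the 7 genes that were called in no comparison, in each heart of the 4 groups, with the mean and SD of 3 hearts. Each axis spans the same range. Nos3 runs from 0.96 to 1.51. Nos3, Nos1ap, Gucy1a3, Gucy1b3 and Pde5a are lower on average in knockout hearts at both ages.

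In all, 4 of 9 tested genes had hearts that did not overlap between genotypes at 1 month, beside 18.6% of all genes (Nos3, Gucy1b3 and the 2 called genes), and 6 of 9 at 2 months, beside 17.6%. At 2 months these were Gucy1a3, Gucy1b3, Pde5a and Prkg1 beside the 2 called genes. As above, the set was chosen with earlier results known, so these shares are no test of it.

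Cngb3 encodes the beta subunit of the cyclic nucleotide-gated channel of cone photoreceptors, which cyclic GMP opens. On probe 1, well above background in all 12 hearts, its level was -1.59, -1.37 and -1.72 in dflox and -3.83, -4.27 and -4 in knockout hearts at 1 month. In the 2-month hearts it was -0.94, -0.82 and -1.03 in dflox and -4.35, -5.23 and -4.18 in knockout hearts. Every knockout heart was lower than every dflox heart of either age. The difference was -2.48 (SE 0.242, 5.56-fold lower, limma adjusted p = 0.00142) at 1 month and -3.65 (SE 0.242, 12.6-fold lower, limma adjusted p = 9.34e-05) at 2 months.

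Probe 2 of Cngb3 gave the same direction. At 1 month its level was -3.39, -3.01 and -3.03 in dflox and -5.98, -7.03 and -6.31 in knockout hearts. The level at 2 months was -2.53, -2.48 and -2.44 in dflox and -6.83, -7.56 and -5.37 in knockout hearts. It was not well above background in any knockout heart at 1 month and was in 1 of 3 at 2 months. The fall at 1 month is therefore a bound, at least 6.18-fold lower, set by the lowest signal among probes well above background on the knockout arrays (limma adjusted p = 0.00857, measured group means -6.44 and -3.14). Probe 2 passed the filter through the dflox hearts, and that p sets their signal against background values in knockout hearts.

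Among called falls over the array, Cngb3 stood at place 7 by size at 1 month and place 3 at 2 months. From 1 to 2 months probe 1 differed by 0.63 in dflox hearts (SE 0.242, limma adjusted p = 0.283) and by -0.55 in knockout hearts (SE 0.242, limma adjusted p = 0.39). In dflox hearts the ages did not overlap on either probe. The genotype effect differed between ages by -1.18 (SE 0.343, limma unadjusted p = 0.0061, adjusted p = 0.934) on probe 1.

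Within slides, Cngb3 probe 1 was at -2.68 on slide 1 and -2.46 on slide 2 at 1 month, as knockout minus dflox. It was at -3.24 on slide 1 and -4.3 on slide 3 at 2 months. Each value compares 1 knockout heart with 1 or 2 dflox hearts. Within places at 2 months the difference was -3.26 in the outer places (1 knockout and 2 dflox hearts) and -3.85 in the inner ones (2 and 1). With place as a term, set by the 2-month arrays alone, the 1-month difference was -2.16 and no longer called (limma adjusted p = 0.0714). With the airway marker level as a covariate it was -2.13 (limma adjusted p = 0.0296).

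Cngb3 is best known from the retina, so the cone markers were examined in the same hearts. The cone opsins Opn1sw and Opn1mw and the cone arrestin Arr3 were not well above background on any of the 12 arrays. Of the 8 cone markers, Pde6h and Gngt2 were well above background in all 12 hearts, Cnga3 in 10, Gnat2 in 7 and Pde6c in 2. The mean level of the 8 ran from -6.24 to -6.05 in dflox and -6.1 to -5.69 in knockout hearts at 1 month, and from -6.01 to -5.53 and -6.17 to -5.47 at 2 months. Cardiomyocyte markers, 7 genes, had median differences of -0.09 at 1 month and -0.18 at 2 months, with none called at either age. Of the 7, 1 was above 0 at each age. Ryr2, which is on this list, was called lower with ages averaged, as given below.

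Cnga3 encodes the alpha subunit that pairs with Cngb3 in the cone channel, and it differed in the opposite direction. Its level was -5.37, -5.32 and -5.1 in dflox and -4.21, -4.38 and -4.04 in knockout hearts at 1 month. At 2 months it was -4.19, -4.78 and -4.1 in dflox and -3.74, -3.7 and -3.35 in knockout hearts. The genotypes did not overlap at either age, and at 1 month the probe was well above background in 1 of 3 dflox hearts.

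The difference in Cnga3 was 1.05 (SE 0.189, limma adjusted p = 0.0303) at 1 month, 0.76 (SE 0.189, limma adjusted p = 0.077) at 2 months and 0.91 (SE 0.134, limma adjusted p = 0.00358) averaged over ages. The 1-month call was lost in 13 of 23 alternative settings, 6 of them fits that each left out 1 heart of that age, with differences from 0.97 to 1.14. With normexp background correction and quantile normalization together the difference was 0.32 (limma adjusted p = 0.381), and with quantile normalization alone it was 1.04 (limma adjusted p = 0.102). The call was also lost with place (1.11, limma adjusted p = 0.383) or slide (1.1, 0.0673) as a term, with the airway marker covariate (1.3, 0.0864), with no filter (1.05, 0.0747) and without slide 3 (1.05, 0.0668).

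**Figure D4:**
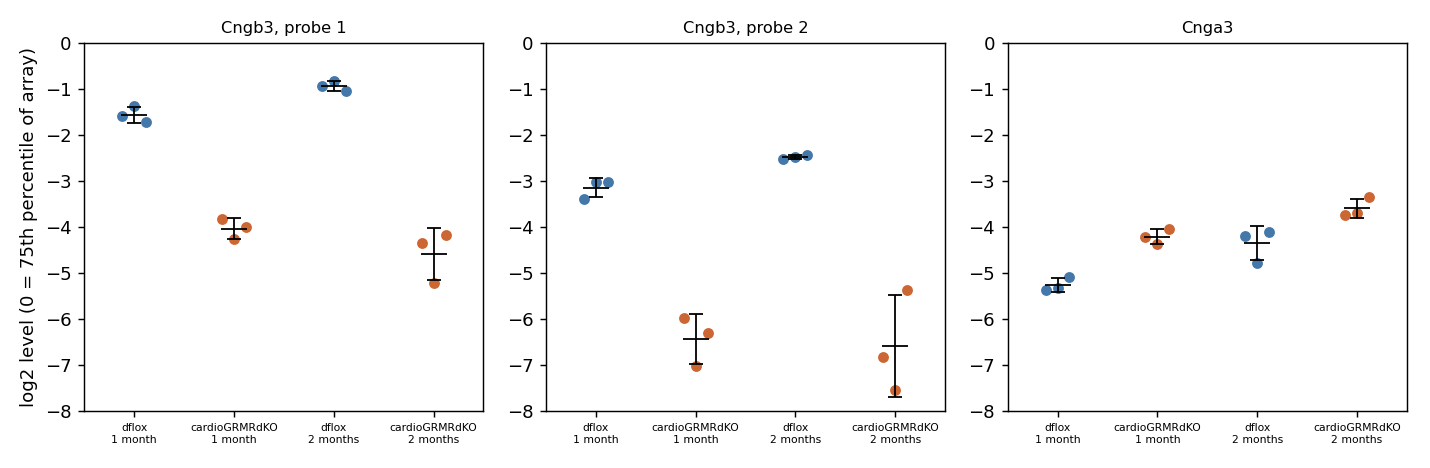
Log2 level of both Cngb3 probes and of Cnga3, the 2 subunits of the cone cyclic nucleotide-gated channel, in each heart of the 4 groups, with the mean and SD of 3 hearts. Cngb3 probe 1 lies between -1.72 and -0.82 in dflox and between -5.23 and -3.83 in knockout hearts, while Cnga3 is higher in knockout than in dflox hearts of the same age.

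The genes most like Cngb3 over the 12 hearts were Bckdhb (r = 0.976), Art3 (0.971), Fbxo44 (0.968), Wnk2 (0.965) and Phyhd1 (0.96). After group means were removed, r was 0.9 for Fbxo44, 0.47 for Bckdhb, 0.43 for Wnk2, 0.021 for Phyhd1 and -0.23 for Art3. Removing them lowered r for every one of these genes, least for Fbxo44 and most for Art3. Bckdhb, a subunit of the branched-chain keto acid dehydrogenase, differed by -0.45 at 1 month and -0.57 at 2 months. Phyhd1 differed by -1.8 and -2.29.

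Age alone moved none of the 9 genes past the test. In dflox hearts 0 were called, beside 0.553% of all genes, with 3 of the 9 and 2583 of 18259 genes (14.1%) at an unadjusted limma p under 0.05. In knockout hearts 0 were called, beside 0.378% of all genes, with 2 of the 9 and 2272 of 18259 genes (12.4%) at an unadjusted limma p under 0.05. In dflox hearts those 3 were Nos3 (-0.22, limma adjusted p = 0.345), Ddah1 (-0.49, limma adjusted p = 0.244) and Cngb3. A change of the genotype effect between the ages was called for 0 of the 9 genes, beside 0% of all genes, with 2 of the 9 and 644 of 18259 genes at an unadjusted limma p under 0.05.

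The wider pathway was read from 9 lists of related genes, also drawn up with earlier results known, of which 60 genes were tested. At 1 month 2 of the 60 were called, both higher, beside 0.98% of all genes tested. At 2 months 1 of 60 was called, also higher, beside 2.31%. Averaged over ages 6 were called, 5 higher and 1 lower, beside 4.5%, and 1 of the 5 is Dlg4, whose dflox hearts were all at background. Their median differences were 0, -0.13 and -0.06, beside 0, -0.1 and -0.06 over all genes tested. With place on the slide as a term, 0 of the 6 averaged calls were kept, and without the 4 arrays of slide 3 only that of Nppb was.

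**Figure D5:**
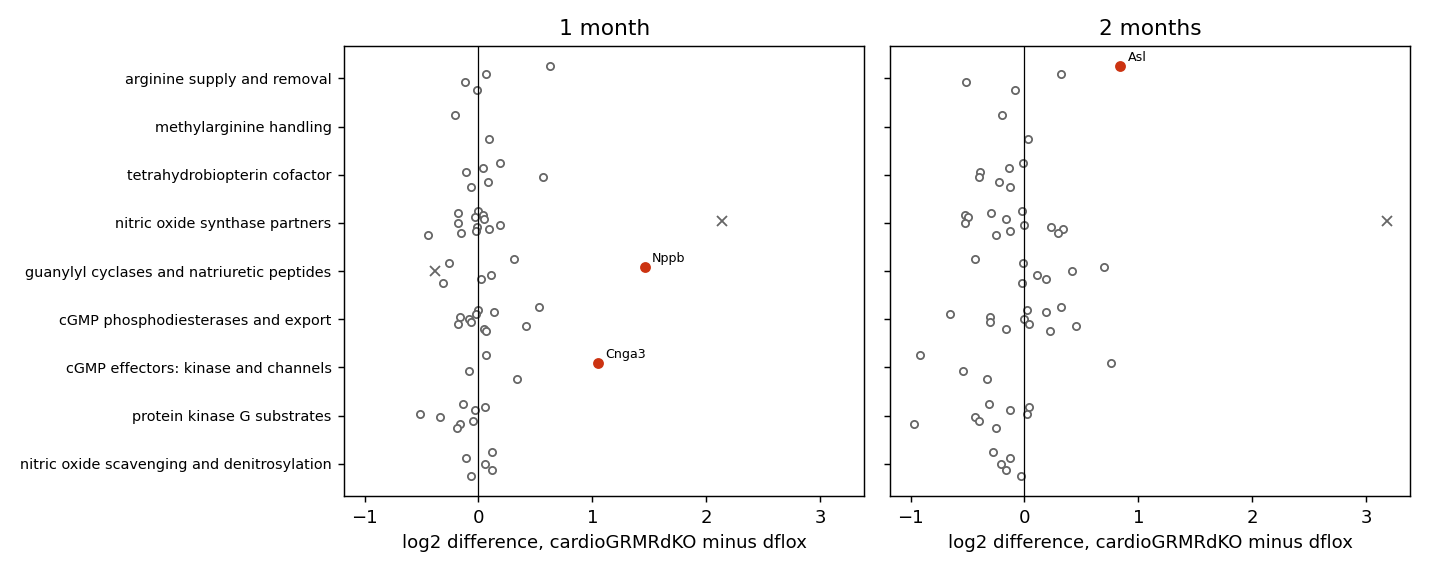
Log2 difference of knockout (cardioGRMRdKO) minus dflox hearts for 60 further genes of the pathway, 1 point per gene, by list, at 1 month (left) and 2 months (right). Filled points with names were called: Nppb and Cnga3 at 1 month and Asl at 2 months. Crosses are genes that were not well above background in any heart of 1 genotype at that age, Dlg4 in both panels and Nppc at 1 month, so their place on the axis is no measured size.

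For the supply of arginine and of the synthase cofactor, 1 gene was called. That call came at 2 months, beside 2.31% of all genes, and with ages averaged, beside 4.5%. Asl makes arginine from argininosuccinate. Its level was -0.37, -0.15 and -0.4 in dflox and 0.45, 0.24 and 0.28 in knockout hearts at 1 month, and -0.13, -0.66 and -0.49 against 0.3, 0.31 and 0.64 at 2 months. The genotypes did not overlap at either age. The difference was 0.63 (SE 0.155, limma adjusted p = 0.118) at 1 month and 0.84 (SE 0.155, limma adjusted p = 0.0194) at 2 months.

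The 2-month call for Asl was lost in 9 of 23 alternative settings. In 3 of these 1 heart was left out, namely dflox replicate 2, dflox replicate 3 or knockout replicate 3 of that age, with differences of 0.73, 0.81 and 0.73. The call was also lost without slide 3 (0.6, limma adjusted p = 0.37), with the 2 groups fitted alone (0.84, 0.183), with normexp and quantile normalization (0.65, 0.156), with place (0.83, 0.0523) or slide (0.82, 0.0509) as a term and with no filter (0.84, 0.0528). The other 3 tested genes of arginine supply and removal were not called. None of the 6 genes for tetrahydrobiopterin, the cofactor of the synthases, was called.

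Among 13 tested partners of the synthases, such as caveolins, calmodulins and dystrophin, 1 was called with both ages averaged, beside 4.5% of all genes. Dlg4, the scaffold PSD-95 to which the neuronal synthase binds in neurons, was not well above background in any dflox heart. Its level was -7.83, -7.78 and -8.15 in dflox and -3.96, -5.46 and -7.92 in knockout hearts at 1 month. By 2 months it was -7.39, -7.85 and -8.09 in dflox and -3.75, -4.51 and -5.53 in knockout hearts. The knockout hearts varied widely, and 1 of them was at the dflox level at 1 month.

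At 2 months Dlg4 was at least 2.48-fold higher in knockout hearts, a bound against the lowest signal well above background on the dflox arrays (measured group means -4.6 and -7.78), and it was not called (limma adjusted p = 0.0845). Averaged over ages it was called (limma adjusted p = 0.0272). That call sets background values in dflox hearts against signal in knockout hearts, and the probe passed the filter through knockout hearts, so no size is given for it beyond the bound. It was lost in 8 of the 12 fits that each left out 1 heart. Its second probe did not pass the filter and stood for the gene when no filter was used, and the averaged difference was then -0.78 and not called (limma adjusted p = 0.232).

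Of 7 guanylyl cyclases and natriuretic peptide genes, 1 was called at 1 month, beside 0.98% of all genes, and with ages averaged, beside 4.5%. Nppb encodes B-type natriuretic peptide, which raises cyclic GMP through a membrane-bound guanylyl cyclase and is a marker of cardiac load. Its level was 4.11, 3.71 and 3.85 in dflox and 5.12, 5.38 and 5.56 in knockout hearts at 1 month. In the 2-month hearts it was 4.62, 5.67 and 4.64 in dflox and 5.6, 6.08 and 5.35 in knockout hearts, so the genotypes overlapped through 1 dflox heart.

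Nppb was 1.46 higher (SE 0.287, limma adjusted p = 0.0464) in knockout hearts at 1 month and 1.08 higher (SE 0.203, limma adjusted p = 0.0127) averaged over ages. At 2 months the difference was 0.7 (SE 0.287, limma adjusted p = 0.273) and was not called. The second probe gave 1.46 at 1 month and 1.13 averaged over ages. In a fit of all passing probes neither Nppb probe was called at 1 month (limma adjusted p = 0.0529 and 0.0623). The 1-month call was lost in 14 of 23 alternative settings, 8 of them fits that each left out 1 heart (all 6 hearts of that age among them, 1.36 to 1.58). It was also lost with the airway marker covariate (0.87, limma adjusted p = 0.439), with place (1.49, 0.514) or slide (1.39, 0.112) as a term and with the replicate block (1.46, 0.0652). The averaged call was lost with place as a term (1.1, limma adjusted p = 0.16).

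Of 11 phosphodiesterases and exporters of cyclic GMP, 1 was called with ages averaged, beside 4.5% of all genes. Pde3a breaks down cyclic AMP and is inhibited by cyclic GMP. Its level ran from -0.03 to 0.08 in dflox and 0.35 to 0.53 in knockout hearts at 1 month, and from -0.04 to 0.29 and 0.46 to 0.65 at 2 months, without overlap at either age. The averaged difference was 0.43 (SE 0.0796, limma adjusted p = 0.0118). A second passing probe of Pde3a gave 0.11, and with the mean of both probes the difference was 0.27 and not called (limma adjusted p = 0.0939).

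Of 8 substrates of protein kinase G, 1 was called with ages averaged, beside 4.5% of all genes. Ryr2, the calcium release channel of the cardiac sarcoplasmic reticulum, ran from -1.01 to -0.81 in dflox and -1.38 to -1.13 in knockout hearts at 1 month. The level at 2 months ran from -0.8 to -0.73 and from -1.28 to -1.15, again without overlap. The averaged difference was -0.38 (SE 0.0715, limma adjusted p = 0.0126). A second probe gave -0.65 and was not called in a fit of all passing probes (limma adjusted p = 0.0641). With place on the slide as a term the averaged difference of the representing probe was -0.45 and not called (limma adjusted p = 0.0865). In the lists on methylarginine handling (2 tested) and on nitric oxide scavenging and denitrosylation (5 tested) no gene was called in any of the 3 genotype comparisons.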

How the data were processed

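Total RNA of 12 hearts was labelled with Cy3 and hybridised to 1-colour Agilent mouse arrays, per the labels. The authors read them with Agilent Feature Extraction (9.5, per the submitters' processing notes). The deposited scanner files give a processed signal, an intensity after background subtraction within the array. Here log2 of that intensity was taken and the array's 75th percentile over its transcript spots subtracted. Control and outlier spots were left out and spots of a probe averaged. A probe was kept if some group had it well above background in all 3 hearts (26979 of 41174). Names came from RefSeq (GRCm38.p6) by accession, symbol or synonym, and the brightest passing probe represented a gene. A model of 4 group means was fitted to all genes with limma 3.58.1 (R 4.3.3), two-sided, and was tested on simulated data. The members, the lists and the rules were chosen with earlier results of these data known. Named were all members, every called gene of the pathway lists, the targeted genes, and the 5 genes most like the Nos1 synonym probe and Cngb3. The mice were separate animals, and 3 hearts a group limit the precision. Coordinates are those of the files (mm7).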

Additional observations from a re-analysis of the deposited data

How the results depend on the processing

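The 2310005C01Rik probe and Cngb3 kept the direction of their genotype differences under every alternative run, and their calls at 2 months and with ages averaged. At 1 month both calls were lost with place on the slide as a term (2.29 and -2.16). In that setting 9 genes of the whole array were called in place of 179, and the term was set by the 2-month arrays alone. Leaving out 1 heart at a time gave 1.92 to 2.24 and 2.67 to 3.08 for the 2310005C01Rik probe, and -2.58 to -2.36 and -3.86 to -3.33 for Cngb3, at 1 and 2 months. Sizes moved more over all 23 alternative settings. The 2310005C01Rik probe then ran from 1.3 to 2.31 at 1 month and from 1.99 to 3.16 at 2 months. Cngb3 ran from -2.89 to -1.53 and from -3.88 to -2.16, so the folds given above depend on the processing.

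Counts of genes called moved by over 1.5 times in some settings. With no filter on dim probes they were 91 at 1 month, 243 at 2 months, 518 with ages averaged, 17 for age in dflox and 13 for age in knockout hearts, where the fit used more genes. With place as a term they were 257 with ages averaged, 1 for the change of genotype effect between ages, 28 for age in dflox and 16 for age in knockout hearts. With the airway marker covariate they were 36 at 1 month, 6 for age in dflox and 15 for age in knockout hearts. Without the 4 arrays of slide 3 they were 110 at 2 months, 234 averaged, 136 for the change between ages and 26 for age in dflox. With slide as a fixed term age in dflox gave 10, and a fit of the 2 groups at 2 months alone gave 97. Leaving out 1 heart gave 83 (without knockout replicate 3 of 1 month) to 232 at 1 month, 240 to 389 at 2 months, 508 to 802 averaged, 3 to 147 for age in dflox and 4 to 62 for age in knockout hearts. The cause was not tested.

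Same-numbered hearts did not deviate together in every pair (correlations of -0.15 to 0.035 at 1 month and -0.028 to 0.55 at 2 months, with 1 of 6 over 0.1), so the numbers were not taken as pairs. With the replicate block the 2310005C01Rik probe stayed at 2.05 and 2.82 and Cngb3 at -2.48 and -3.65, all called, and age in knockout hearts gave 31 genes. Signs turned for Nos1ap at 1 month with place as a term (0.19) and over fits without 1 heart (-0.12 to 0.02), for Ddah1 at 1 month with the airway covariate (0.15), for the 2310005C01Rik probe with age in dflox (-0.03 with quantile normalization, -0.18 without slide 3, -0.14 to 0.27 without 1 heart), for Nr3c2 at 1 month (-0.27 with slide as a fixed term, -0.13 with the airway covariate, -0.2 without slide 3, -0.2 to 0.23 without 1 heart) and at 2 months (0.42 without slide 3), and for Dlg4 with no filter (-1.5 at 1 month, -0.06 at 2 months, -0.78 averaged). None of these reversed values was called. For probes near background the arrays give a bound or no fold, and 3 hearts a group limit what can be called.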
